A study of Mus musculus with 56 samples.

Results

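Far non-repeat intergenic lower peaks are the sites of the histone variant H2A.Z that the authors list as lower and that their annotation places between genes, far from any start site. They were chosen from the authors' list of lower H2A.Z peaks by 3 labels of that list: an intergenic annotation, a detailed annotation that names neither a repeat nor a CpG island, and a distance of more than 50 kb from the nearest transcription start site (TSS). This selection held 359 of the 9077 lower peaks and of the 61420 H2A.Z peaks in all. Over the whole peak set 14.8% of the peaks were in the list of lower peaks and 0.518% in the list of higher peaks. Because the choice of members used that list, these shares are given as background only.

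The study profiled mouse embryonic stem cells by CUT&Tag, in which an antibody guides a transposase that cuts and tags the DNA around its target. The line, RHKI, derives from E14Tg2a and carries an HA-Rnaseh1 knock-in, which the design text describes as inducible. Whether the line is 1 clone is not stated, and a ZX-1 line that the design text names is given by none of the sample labels. Of 56 libraries, 4 H2A.Z libraries came from cells given doxycycline (500 ng/ml for 48 hours) and 4 from control cells of the same knock-in genotype. Both groups were kept in 2i/LIF medium, with PD0325901 at 1 µM, CHIR-99021 at 3 µM and FBS at 2%. The 48 libraries of other targets were not analysed here, so neither the induction of Rnaseh1 nor any active enhancer mark was measured at these sites, and the cell type was not checked by expression. The lists hold positions and annotation but no value per library. Depth and the spread between replicates are therefore unknown here, no test over samples could be made, and no p-value is given below. The name of the list is the source for taking "lower" as less signal with doxycycline than without.

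As background, H2A.Z replaces canonical H2A in nucleosomes at promoters and at distal enhancers, where remodelling complexes such as SRCAP deposit it. R-loops, RNA:DNA hybrids with a displaced DNA strand, form where nascent RNA pairs with its template, at promoters of coding genes and also at enhancers and long non-coding RNA (lncRNA) genes that are transcribed. RNase H1 digests the RNA of such hybrids. Genes that guide development often sit beside wide gene-poor stretches that hold their enhancers.

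RefSeq start sites fell on some of the members. Of the 359, 18 (5.01%, exact Clopper-Pearson 95% interval 3.00 to 7.81%, as for all intervals here, and counting error only) overlapped a RefSeq promoter window, which runs from 250 bases before to 50 bases after a start site, and 15 contained the start site itself. The share was 6.22% of the 933 near non-repeat intergenic lower peaks, which lie up to 50 kb from a TSS. It was 4.88% of the 82 higher peaks that meet the same far, non-repeat, intergenic rule (far higher peaks), and 15.1% of peaks in neither list. The rule leaves out peaks close to an annotated TSS, so it keeps the share of members low. Peaks in neither list were not chosen by place, and 39.1% of them were centred in a protein-coding gene. The windows on members belonged to 21 genes, 18 of them lncRNA genes and 3 protein-coding. All but B230206L02Rik carry the Gm names of predicted genes. No genome was read here, so the DNA of whole peaks is not printed. The 5 windows that follow lie wholly inside members. They are examples of member DNA at lncRNA starts and need not be typical of it. Sequences are from RefSeq, GRCm38.p6, 5′ to 3′ on the strand of the gene, and capitals mark matches to the GC box (GGGCGG), searched on both strands; matches that overlap form 1 run of capitals. The TATA and CCAAT boxes were searched too, and none of these 5 windows holds either.
Gm32287, chr2:167777365-167777664, minus strand, in the 4126 base pair member 85.6 kb from A530013C23Rik: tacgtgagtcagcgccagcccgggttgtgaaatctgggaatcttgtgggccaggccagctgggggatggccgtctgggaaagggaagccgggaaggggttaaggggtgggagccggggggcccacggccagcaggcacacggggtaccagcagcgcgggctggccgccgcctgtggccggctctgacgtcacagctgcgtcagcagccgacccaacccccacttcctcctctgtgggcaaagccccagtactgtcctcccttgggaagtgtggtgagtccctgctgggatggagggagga
Gm14321, chr2:167777241-167777540, plus strand, in the same member: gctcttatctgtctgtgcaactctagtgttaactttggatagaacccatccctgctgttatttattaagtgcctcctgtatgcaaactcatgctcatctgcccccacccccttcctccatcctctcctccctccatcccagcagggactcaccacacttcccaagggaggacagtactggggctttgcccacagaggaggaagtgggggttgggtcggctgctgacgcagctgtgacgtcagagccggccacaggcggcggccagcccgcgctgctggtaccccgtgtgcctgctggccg
Gm14636, chrX:19237801-19238100, minus strand, in the 1822 base pair member 90.7 kb from Mir222: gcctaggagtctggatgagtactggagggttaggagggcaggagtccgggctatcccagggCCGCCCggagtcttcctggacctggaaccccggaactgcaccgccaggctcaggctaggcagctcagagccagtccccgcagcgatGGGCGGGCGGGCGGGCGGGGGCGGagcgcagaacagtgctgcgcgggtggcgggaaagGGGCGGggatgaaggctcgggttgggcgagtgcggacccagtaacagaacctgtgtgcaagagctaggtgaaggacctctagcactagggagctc
Gm52033, chr13:66714723-66715022, plus strand, in the 3717 base pair member 191 kb from Uqcrb: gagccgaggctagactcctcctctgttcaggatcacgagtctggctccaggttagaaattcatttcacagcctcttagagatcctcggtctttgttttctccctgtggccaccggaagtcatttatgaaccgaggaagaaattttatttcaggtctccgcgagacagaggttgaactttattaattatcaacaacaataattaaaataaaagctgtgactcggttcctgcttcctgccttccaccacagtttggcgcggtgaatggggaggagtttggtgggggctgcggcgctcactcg
Gm32351, chr13:94702839-94703138, minus strand, in the 1632 base pair member 85.6 kb from Tbca: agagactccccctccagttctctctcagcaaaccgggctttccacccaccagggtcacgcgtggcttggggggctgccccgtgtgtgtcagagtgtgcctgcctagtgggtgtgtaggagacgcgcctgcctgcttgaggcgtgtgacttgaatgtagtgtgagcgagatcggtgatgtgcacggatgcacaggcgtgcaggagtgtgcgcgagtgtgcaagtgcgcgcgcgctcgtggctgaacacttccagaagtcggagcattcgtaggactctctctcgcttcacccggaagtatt

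The Gm32287 and Gm14321 windows overlap on opposite strands, and this member holds 4 windows of Gm32287 and 1 of Gm14321. The Gm14636 window holds 7 matches to the GC box, 20 CpG dinucleotides and 67.3% G+C, with an excess of G over C on the gene's strand (GC skew, the difference of G and C over their sum, of 0.24). The Gm32351 window has 22 CpG dinucleotides and the Gm52033 window 13, with skews of 0.11 for Gm32351 and 0.03 for Gm52033. The printed Gm32287 window has 16 CpG dinucleotides and a skew of 0.15. The Gm14321 window has 10 and a skew of -0.13, an excess of C over G on its strand. Over the 20 lncRNA gene windows with at least 150 bases in a member, from 15 genes, median G+C was 60.2%, against 62.3% in the 549 such windows in any lower peak, 53.0% in the 2264 in peaks of neither list and 48.3% in all 11588 lncRNA gene windows. The median GC skew of these 20 windows was 0.00811 (quartiles -0.133 and 0.119). It was -0.00671 in such windows in any lower peak, 0 in peaks of neither list and 0.00699 in all lncRNA gene windows. A GC box stood in 6 of the 20 (30.0%), against 51.5% of such windows in any lower peak, 33.0% of those in peaks of neither list, 16.3% of all lncRNA gene windows and 35.7% of all 32851 promoter windows. The box CCAAT stood in 1 of 20 (5.00%), against 24.8% of such windows in any lower peak, 34.4% in peaks of neither list, 35.97% of all lncRNA gene windows and 37.4% of all promoter windows. The TATA box, spelled TATAAA and able to overlap its own reverse complement, stood in 1 of 20, against 3.28% of such windows in any lower peak, 7.95% in peaks of neither list, 15.5% of all lncRNA gene windows and 13.6% of all promoter windows. Windows of 1 gene overlap, so these counts are a description.

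Most members lay outside RefSeq genes, and many of these had a lncRNA gene nearby. Of the 359 members, 278 (77.4%) lay outside every protein-coding and lncRNA gene of the RefSeq table of GRCm38.p6. A further 61 were centred in a lncRNA gene and in no protein-coding gene, and 20 in a protein-coding gene. Of the 278 outside, 202 had a gene end within 50 kb and 76 had none. A stricter reading of "far", outside and over 50 kb from every gene span, thus held for 21.2% of the members (17.1 to 25.8%) with lncRNA genes counted. It held for 66.3% (61.1 to 71.2%) when only protein-coding genes were. Counting genes of every type, it held for 9.75%. A member beside the far end of a gene fails this reading though its TSS is distant. Distance to the nearest RefSeq start site was not measured for all members, so these shares do not test the authors' distances. The median distance from a member to the nearest span of either gene type was 12.7 kb, against 64.9 kb to the nearest protein-coding gene. Among near non-repeat intergenic lower peaks the corresponding medians were 4.28 and 9.51 kb. Among far higher peaks they were 60.8 and 205 kb.

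**Figure D1:**
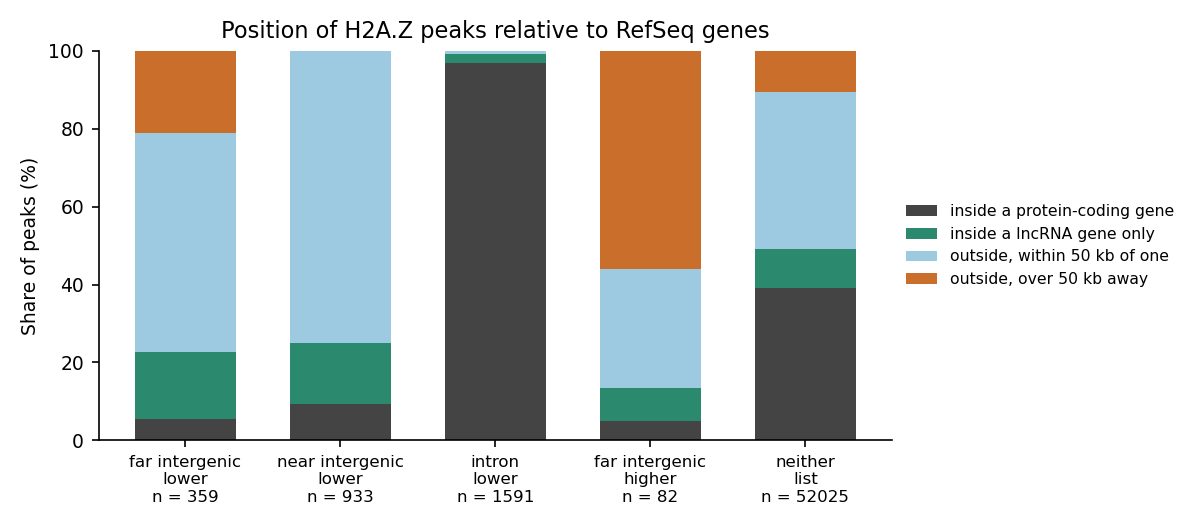
Position of peak centres relative to RefSeq protein-coding and lncRNA genes (stacked shares of peaks in %, n under each bar) for far non-repeat intergenic lower peaks, 3 other classes from the authors' lists, and peaks in neither list. Of the far intergenic lower peaks 21.2% lie over 50 kb from both gene types, against 56.1% of the far intergenic higher peaks.

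The median width of the members lay between those of the far higher peaks and of the other classes. Their median width was 778 base pairs (quartiles 501 and 1178), against 903 in near non-repeat intergenic lower peaks, 1028 in non-repeat intron lower peaks, 501 in far higher peaks and 967 in peaks of neither list. The minimum width of the set, 501 base pairs, was that of 95 members (26.5%, 22.0 to 31.3%), against 20.9% of near intergenic lower peaks, 15.4% of intron lower peaks, 53.7% of far higher peaks and 15.4% of peaks in neither list. Only 26 members (7.24%) were wider than 2 kb, against 12.8% of near, 21.6% of intron, 1.22% of far higher and 20.8% of unlisted peaks. The widths were closer among peaks in like places. Among peaks more than 50 kb from any protein-coding gene, 238 members had a median width of 770.5 base pairs (exact binomial interval of the median 756 to 805), the 794 other lower peaks one of 755.5 (751 to 769) and the 11652 peaks in neither list one of 816 (805 to 829). The minimum width was that of 25.6% of these members, 28.8% of the other lower peaks and 18.98% of the unlisted peaks.

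The 8 widest members are given as a description. The 5834 base pair peak 76.2 kb downstream of A530013C23Rik (chr2:167764498-167770331) came first, and another of 4126 base pairs lay beside it (chr2:167774743-167778868). Both fall between Cebpb, the C/EBP beta transcription factor gene, and Ptpn1, which encodes the phosphatase PTP1B. Next came peaks of 5261 and 5067 base pairs, assigned to Gse1 and to the non-coding gene A330074K22Rik on chromosome 8. One of 4678 base pairs was 75.7 kb upstream of Tob1, an antiproliferative gene, and held the start of the lncRNA gene B230206L02Rik. The others were peaks of 3841 base pairs at Barx1, a homeobox gene of tooth and stomach, 3729 at Sik1, which encodes a salt-inducible kinase, and 3717 at Uqcrb, a subunit of respiratory complex III.

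Members lay on both sides of their assigned genes. There were 179 upstream and 180 downstream of the assigned TSS, so 49.9% were upstream (44.6 to 55.2%), against 69.6% (66.5 to 72.5%) of near non-repeat intergenic lower peaks and 59.8% (48.3 to 70.4%) of far higher peaks. The median distance was 87.9 kb (quartiles 65.0 and 135 kb), and 141 members (39.3%) were within 75 kb. From 200 to 500 kb there were 41 members (11.4%) and beyond 500 kb 8 (2.23%), against 32 (39.0%) and 11 (13.4%) of the 82 far higher peaks. The distance used in the rule sets its lower end, so these values describe the members. The intergenic label leaves out peaks inside genes, and of the non-repeat intron lower peaks only 16.6% were upstream. The upstream share of near intergenic peaks thus depends on that label too, and its part in the difference was not tested.

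**Figure D2:**
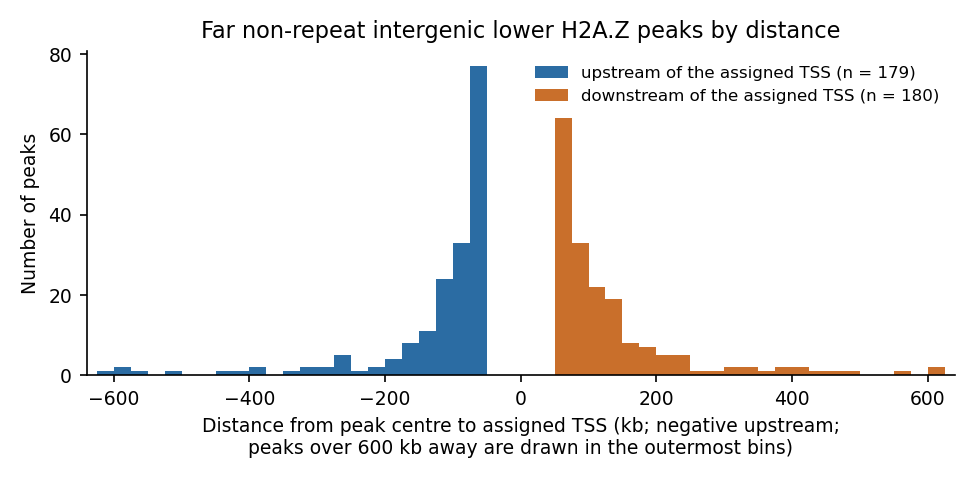
Number of far non-repeat intergenic lower peaks by signed distance from the peak centre to the assigned TSS, in bins of 25 kb (x axis in kb, negative upstream; y axis, number of peaks; 3 members over 600 kb away are drawn in the outermost bins). Both sides are filled evenly, with 179 peaks upstream and 180 downstream, and most lie within 100 kb.

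The members nearest to the limit were peaks of 790 base pairs at C130026L21Rik (-50044 base pairs), 935 at Sik1 (-50106) and 2062 at Mir6935 (50241). Just outside it were peaks at 5430434I15Rik (-49966), Lncppara (-49925) and Vps54 (-49870), of 501, 936 and 781 base pairs. The farthest members were 1022 kb upstream of H2afb3, a histone H2A variant gene on X, 846 kb downstream of 5730507C01Rik, 798 kb downstream of Gm1653, and 596 kb upstream of Gm30214 and of Tle4, a Groucho corepressor. The widths of these 5 were 1468, 501, 778, 1596 and 629 base pairs.

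The 359 members were assigned to 288 genes, 238 of which had 1 member, 39 had 2 and 11 had 3 or more. Protein-coding genes took 270 members, non-coding RNA genes 86 and pseudogenes 2, while 1 had no gene. At 136 genes the members were the only lower peaks in the list, and at the other 152 a further lower peak of any annotation was assigned to the same gene. Unnamed gene models made up 67 of the 288.

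Among the named genes with most members, Gse1 had 5, all of them upstream of the annotated TSS at 65.2 to 119.5 kb, and the neighbouring A330074K22Rik had another 5. All 10 lie in a stretch of 139 kb (chr8:120287606-120426324) that is inside the span of Gse1 in RefSeq, and they are 10 of the 20 members found in a protein-coding gene. In the authors' annotation they are intergenic. Pja1, a gene for a RING-type ubiquitin ligase on X, had 4, at 79.8, 97.0, 105 and 132 kb upstream with widths of 876, 908, 1271 and 758 base pairs, and no other lower peak. Sik1 had 3, of 3729 and 2426 base pairs downstream and 935 upstream.

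Smad6, the inhibitory Smad of BMP signalling, had 3 members 84.8 to 103 kb downstream, within 19.5 kb of each other, in the interval that separates it from Smad3. Slc22a12, a urate transporter gene, had 3 upstream, the widest of 3694 base pairs at 127 kb. Foxl1, a forkhead factor of gut mesenchyme, had 3 downstream at 92.7, 101 and 174 kb. Bcor, which encodes a corepressor that is part of a variant Polycomb complex, had 3 on both sides of the gene at 92.5, 272 and 345 kb, of which 2 had the minimum width.

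With 2 members each followed Pitx1, a homeobox gene of the hindlimb (3350 and 1052 base pairs, 133 and 67.1 kb upstream), Blk, a Src family kinase gene of B cells (2141 and 1523 base pairs, 73.6 and 78.2 kb downstream, in the 101 kb that separate it from Gata4), and Twist2, a mesenchymal basic helix-loop-helix factor (1858 and 1007 base pairs, in the 80.7 kb before Hdac4). Nfatc2, a calcium-regulated factor, had peaks of 1610 and 1059 base pairs at 152 and 128 kb downstream. Rybp, another component of variant Polycomb complexes, had peaks of 1442 and 1044 base pairs at 124 and 144 kb downstream, and both lie in RefSeq lncRNA genes, the first also on the start of Gm33448.

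Between protein-coding genes the members were spread over many gaps, with a few that held several. The 339 members outside protein-coding genes fell in 246 gaps of a median 286 kb over members (quartiles 155 and 569 kb). Of these gaps 184 held 1 member, 41 held 2 and 21 held 3 or more. The gap from Foxl1 to 1700018B08Rik (400.1 kb, chr8:121130645-121530775) held most, with 8 members, 1 other lower peak and 10 peaks in neither list. In the 240.3 kb from Cebpb to Ptpn1 (chr2:167690433-167930749) 11 of 13 peaks were lower, of which 6 were members. The gap before Bcl11b, a zinc finger factor of T cells and neurons, held 4 members among 12 peaks, and that from Pja1 to Tmem28 held 4 among 8. In the gap from Cryaa to Sik1 6 of 10 peaks were lower, and in that from Pitx1 to Macroh2a1, a gene for another H2A variant, 3 of 4 were. These gaps were singled out after their values were seen.

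**Figure D3:**
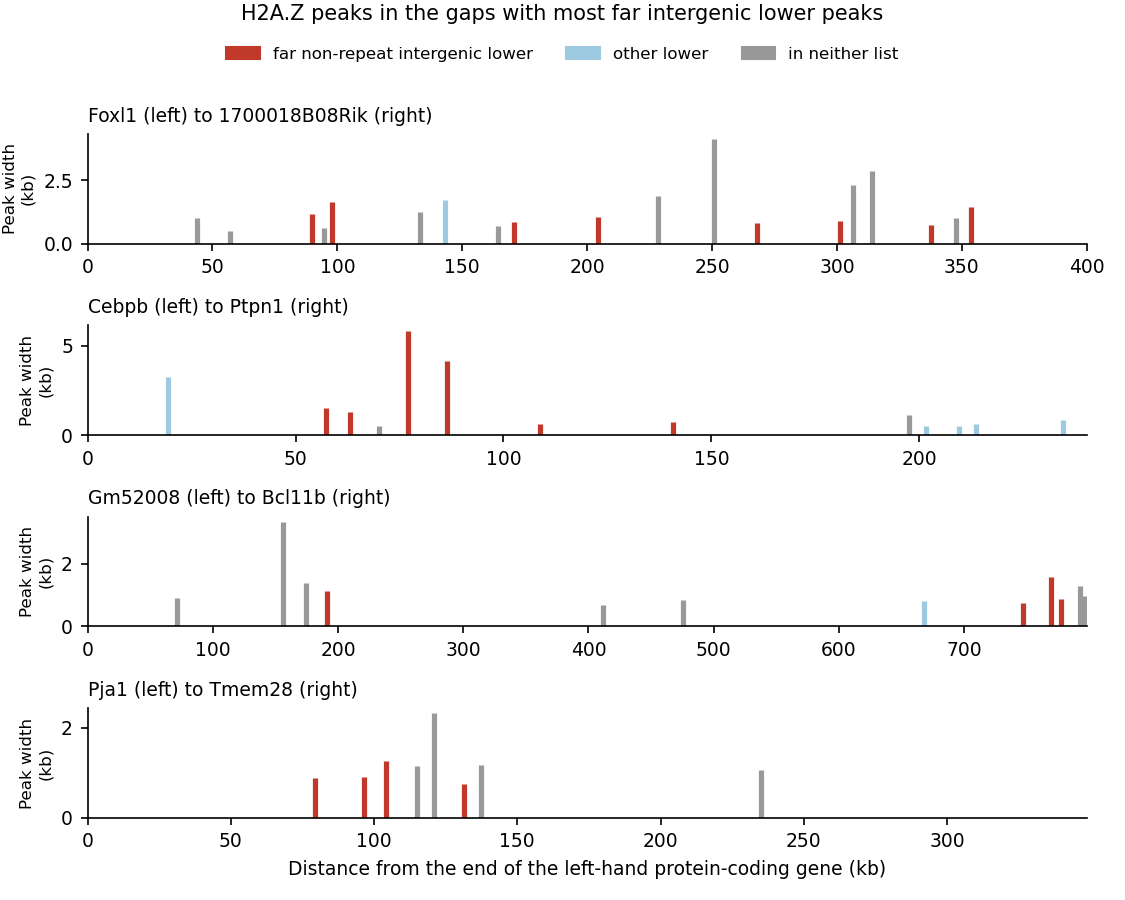
H2A.Z peaks in the 4 gaps with most far non-repeat intergenic lower peaks; each line is a peak at its distance from the end of the left-hand protein-coding gene (x axis, kb), and its height is the width of the peak (y axis, kb; line thickness is not to scale). The Cebpb to Ptpn1 gap holds 11 lower peaks of 13, the Foxl1 gap 9 of 19.

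Other peaks in the same gaps were mostly unlisted. Of the 2679 peaks in the 246 gaps that were not members, 223 were lower (8.32%, 7.31 to 9.43%). Of the 34770 peaks outside protein-coding genes that were not members, 2841 were lower (8.17%, 7.88 to 8.46%). The gaps were chosen for holding a member and members were then left out, which lowers the share in the gaps. With members kept, 562 of the 3018 peaks in the gaps were lower, a share that the choice of gaps raises. Neither way of counting can therefore say whether lower peaks gather in these gaps. In 17 gaps every peak was lower, and 4 of these had 3 or more peaks. Among the 4 were the gap from A230072I06Rik to Sox1, a neural Sox factor, and that between Rbm19 and Lhx5, with 3 of 3 each. Since each gap was chosen for holding a member, a gap whose only peak was that member counts among the 17 by that choice. The gap between Anp32a and Coro2b is an example, so the count of 17 is a description only. Higher peaks were found in 4 of the 246 gaps, 5 peaks in all.

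A larger share of members than of unlisted peaks had a lower peak nearby, and a smaller share than of lower peaks closer to genes. These differences were not tested, since peaks are not replicates. Within 25 kb of 102 members (28.4%, 23.8 to 33.4%) there was another lower peak, against 55.2% (51.9 to 58.4%) of near non-repeat intergenic lower peaks, 55.6% (53.1 to 58.0%) of intron lower peaks, 1.22% (0.03 to 6.61%) of far higher peaks and 19.2% (18.9 to 19.6%) of peaks in neither list. Of the 708 neighbours that members had within 25 kb, 146 were lower (20.6%), against 32.2% around near lower peaks, 1.43% (1 of 70) around far higher peaks and 11.9% around unlisted peaks. Over the whole peak set 22.5% of peaks (22.1 to 22.8%) had another lower peak within 25 kb, and 14.8% of neighbours were lower. Over all lower peaks these shares were 41.6% (40.6 to 42.6%) and 32.0%. A neighbour was counted once for each peak it was near. More than 50 kb from any protein-coding gene, 54 of 238 members (22.7%, 17.5 to 28.5%) had another lower peak within 25 kb, against 859 of 11652 peaks in neither list (7.37%, 6.90 to 7.86%). Of the 794 other lower peaks there, 79 (9.95%, 7.96 to 12.2%) had another lower peak within 25 kb. The median number of other peaks within 25 kb was 1 for these members and the unlisted peaks, and 0 for the other lower peaks. None stood there for 25.2% of these members, 53.7% of the other lower peaks and 31.1% of the unlisted peaks. Of the neighbours, 16.3% were lower around these members, 15.5% around the other lower peaks and 5.32% around the unlisted peaks.

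**Figure D4:**
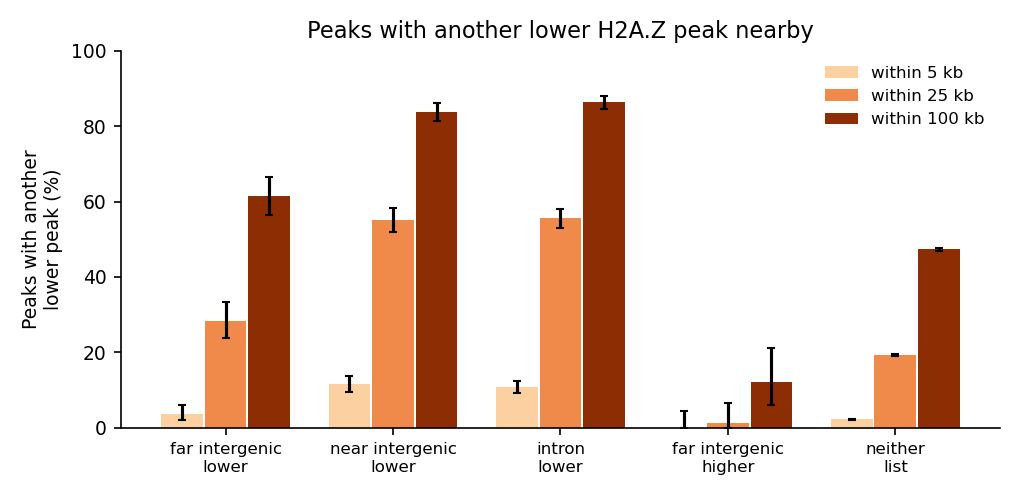
Share of peaks with another lower peak centred within 5, 25 or 100 kb (bars, %; error bars, 95% exact binomial intervals, counting error only) for far non-repeat intergenic lower peaks, 3 other classes and peaks in neither list. At 25 kb the far intergenic lower peaks, at 28.4%, lie between the near ones at 55.2% and the unlisted peaks at 19.2%.

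The nearest other lower peak was a median of 59.2 kb from a member, against 20.7 kb from near intergenic and 20.2 kb from intron lower peaks, and 369.6 kb from far higher peaks. The nearest unlisted peak was closer, at 13.3 kb. The nearest higher peak was 6831 kb away. Taking members within 25 kb of each other as a group, 77 members fell in 31 groups and 282 stood alone. Only 6 groups had 3 or more: the 10 at Gse1, 5 in 52.6 kb downstream of A530013C23Rik, and 3 each beside Nfatc2, Bcl11b, Pja1 and Smad6.

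The assigned genes included 31 of developmental transcription factors. Of the 359 members 42 (11.7%, 8.56 to 15.5%) were assigned to a gene of 8 factor families, against 81 of 933 near non-repeat intergenic lower peaks (8.68%), 3 of 82 far higher peaks (3.66%) and 545 of all 9077 lower peaks (6.00%). They were assigned to 31 genes of the 556 that RefSeq holds in those families. Over all RefSeq protein-coding genes 215 of 21883 (0.982%) had a member. In the same families 70 genes had a near non-repeat intergenic lower peak and 307 had some lower peak. For these 2 kinds of peak the share over all protein-coding genes was not counted. The authors' annotation covers listed peaks only, so the same was asked of gene spans. More than 50 kb from any protein-coding gene, the nearest one was of these families for 35 of 238 members (14.7%, 10.5 to 19.9%), for 59 of 794 other lower peaks (7.43%, 5.70 to 9.48%), for 10 of 163 higher peaks (6.13%, 2.98 to 11.0%) and for 1146 of 11652 unlisted peaks (9.84%, 9.30 to 10.4%). Such a gene stood on either flank for 26.1% of these members, 13.9% of the other lower peaks, 9.82% of the higher peaks and 17.8% of the unlisted peaks. The rule keeps repeats out of the members but not out of the other sets, and the gaps differed in size, with medians of 384 kb for members, 881 kb for other lower, 1149 kb for higher and 600.4 kb for unlisted peaks. The part of gap size and of repeats in these shares was not tested.

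Within the families, zinc finger factors had 11 members at 8 genes, with 2 each at Bcl11b, Sall3 and Klf4 and 1 of 1010 base pairs at Klf10. Other developmental factors also had 11, at 7 genes, among them Smad6, Nfatc2, Runx3 (1166 and 501 base pairs, 65.8 and 76.4 kb upstream) and Tcf7l2, a Wnt effector. Forkhead factors had 6 members at 4 genes, Foxl1, Foxp4 (3420 base pairs, 50.5 kb), Foxc1 and Foxo1. Homeobox factors had 6 at 5 genes, with Pitx1 and Barx1 ahead of Lhx5 and Meis2. Basic helix-loop-helix factors had 4 (Twist2, Hey1 and Hand1), Sox factors 3 (Sox13, Sox14 and Sox1, 1 each), nuclear receptors 1 (Rxra) and T-box factors 0 (exact upper bound 1.02% of members; a count of 3 would be 0.836%). Zinc finger factors thus took 3.06% of members, against 0.857% of near and 1.02% of all lower peaks, and other developmental factors 3.06%, against 1.39% of near and 1.01% of all. Forkhead factors took 1.67% of members, against 0.536% of near and 0.573% of all lower peaks, while homeobox factors took 1.67%, against 3.11% of near and 1.91% of all. Basic helix-loop-helix factors took 1.11%, against 1.07% of near and 0.628% of all, and Sox factors 0.836%, against 0.429% of near and 0.220% of all. Nuclear receptors took 0.279%, against 0.750% of near and 0.452% of all, and T-box factors none, against 0.536% of near and 0.187% of all. With so few members a family, the order of these shares was not tested.

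Among the lists of signalling, transport and structural genes, 3 took shares of members slightly above those of all lower peaks and 4 took smaller ones, on 1 to 8 members each. FGF, Wnt and TGF-beta family ligands had 4 members, at Bmp7 (765 and 501 base pairs, 87.3 and 118 kb downstream), Bmp6 and Wnt11 (1.11%, against 0.881% of all lower peaks). Ion channels and neurotransmitter receptors had 8 at 7 genes, among them the kainate receptor gene Grik3 with 2, Cacna1a, Kcnn2 and Trpc7 (2.23%, against 2.14%). Solute carriers had 8 at 6 genes, with Slc22a12, Slco5a1, Slc41a2 and Slc25a26 (2.23%, against 2.05%). Axon guidance genes (Efnb1), cadherins and neuronal adhesion genes (Lrrc4), collagen and matrix genes (Col13a1) and olfactory and vomeronasal receptor genes (Vmn2r121) had 1 each, or 0.279% of members, against 0.738%, 1.29%, 0.826% and 0.771% of all lower peaks.

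Of 12 markers of embryonic stem cells, Klf4, a factor of naive pluripotency, was the only 1 with a member. Its 2 members, of 678 and 501 base pairs, lay 51.3 and 519.6 kb upstream and were its only lower peaks, and the nearer one is in the lncRNA genes Gm12506 and Gm12511 of RefSeq. Tbx3 and Nr0b1 had a lower peak elsewhere, and Nanog, Pou5f1, Sox2, Klf2, Klf5, Esrrb, Tfcp2l1, Prdm14 and Zfp42 had none assigned. Of 6 fibroblast markers, which feeder cells would express, Twist2 had 2 members and 5 had some lower peak. The share of all genes with some lower peak was not counted, so these marker counts have no background. It differed between lists: 307 genes of the developmental factor families had one, where RefSeq holds 556. Of olfactory and vomeronasal receptor genes 68 had one, where RefSeq holds 1465. Peak lists do not measure expression, and the mix of cells was not tested.

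Of X and the autosomes, X had the largest share of its peaks among members. It held 23 members, 1.55% of its 1482 peaks (0.986 to 2.32%), against 336 on the autosomes, 0.561% of 59914 (0.503 to 0.624%). Chromosome 8 came next at 1.03% (0.693 to 1.46%), 10 of its 30 members being those at Gse1, and chromosome 16 was lowest of the autosomes at 0.220% (0.0716 to 0.514%), while Y held 0 members among 8 peaks. On X the members included the 4 at Pja1 and the 3 at Bcor, single peaks at Efnb1, Elf4 and Dgkk, and the peak with the start of Gm14636 near Mir222. Their median width was 753 base pairs, against 784 on the autosomes, and 8 of the 23 had the minimum width.

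The share of lower peaks among all peaks far from genes, by a rule that used no annotation of the lists, was also largest on X among X and the autosomes. Of the 6187 peaks outside and more than 50 kb from RefSeq protein-coding and lncRNA genes, 9.33% were lower (8.61 to 10.1%), against 15.4% of those in or near such genes; for higher peaks the shares were 1.81% and 0.373%. On X 89 of 342 such far peaks were lower (26.0%, 21.5 to 31.0%), against 484 of 5841 on the autosomes (8.29%, 7.59 to 9.02%), where single chromosomes ran from 4.03% on chromosome 7 to 12.3% on chromosome 16. Peaks in or near genes differed less, with 18.8% (16.5 to 21.2%) lower on X and 15.3% (15.0 to 15.6%) on the autosomes. Members made up 14 of the 89, or 4.09% of the far peaks of X (2.26 to 6.77%), against 62 of the 484, or 1.06% of those of the autosomes (0.815 to 1.36%). Peaks in L1Md elements, a mouse LINE-1 group, which the rule leaves out, made up 68 of the 89, or 19.9% of far peaks on X, against 6.23% on the autosomes. These shares were not tested, and no copy number was measured.

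**Figure D5:**
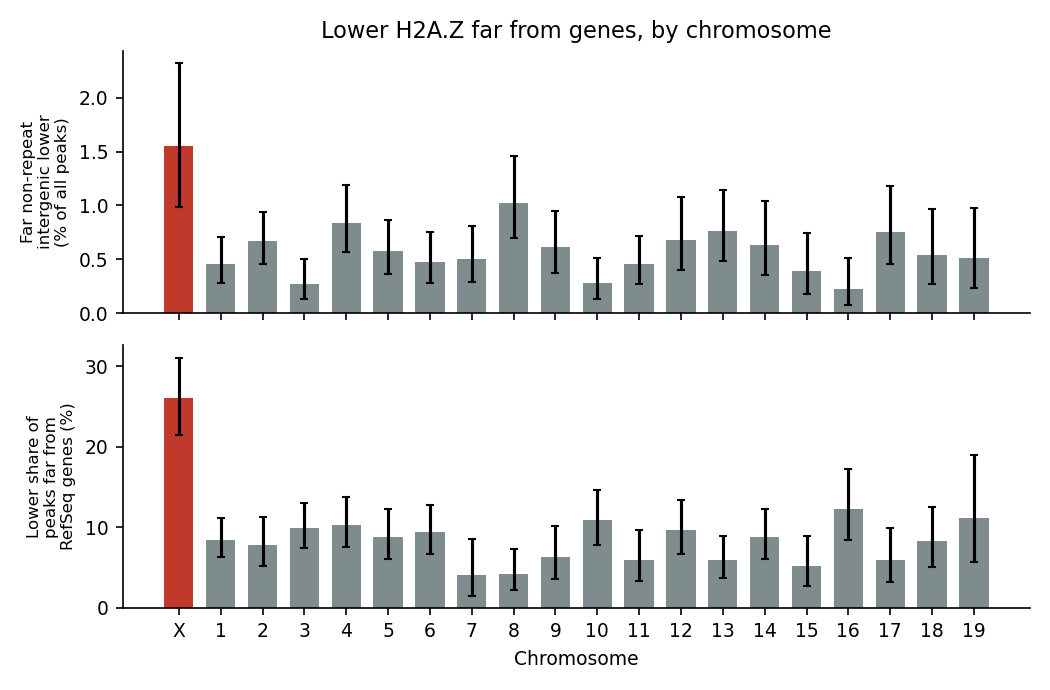
Upper panel, far non-repeat intergenic lower peaks as a share of all H2A.Z peaks of each chromosome (%); lower panel, share of lower peaks among peaks over 50 kb from RefSeq protein-coding and lncRNA genes (%). Error bars are 95% exact binomial intervals (counting error only), and X is in red; it stands at 1.55% and 26.0%, against at most 1.03% and 12.3% on any autosome.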

How the data were processed

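H2A.Z was profiled by CUT&Tag in 4 doxycycline and 4 control libraries. The authors deposited a peak set and lists of lower and higher peaks with positions, annotations and distances to the nearest TSS. Their score column, as deposited, holds only 0 and carries no information. Trimmomatic, Bowtie2, Picard, HOMER, deepTools and GRCm38 are named per the submitters' processing notes, and annotation with annotatePeaks on mm10 per the file headers. Not given in the sources used here were tool versions, the peak caller, any pooling of libraries, and the test and threshold behind the lists. A list can therefore hold any size of change, and no value per library was used (0 per-sample columns were left unused).

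Peaks were matched by position to RefSeq genes (GRCm38.p6: 21883 protein-coding, 12727 lncRNA) and to 32851 RefSeq promoter windows. A peak's centre gave its distance to gene spans. Shares have exact Clopper-Pearson 95% intervals, which cover counting error only and treat peaks as independent. Interval functions were checked on simulated data. The tools were SciPy 1.17.1 for the intervals, pandas 2.3.3 and numpy 2.4.6 for the joins and matplotlib 3.10.9 for plots, under Python 3.11.15.

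The members and gene lists were chosen with earlier results of these data known. Named genes were the 12 with most members (ties by median width of the members), up to 4 per gene list (ties by widest member), the 8 widest members, the 5 farthest and the 3 nearest to the limit on either side; unnamed gene models were left out except by width and distance, and gaps or groups of members named besides were chosen after their values were seen. Alternatives were distance limits of 25 and 100 kb, windows of 5 and 100 kb, other gene types, and leaving out peaks of the minimum width.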

Additional observations from a re-analysis of the deposited data

How the results depend on the processing

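The lists hold no value per library, so neither depth, replicate spread nor the size of a change could be weighed, and leaving out a replicate was not possible. No paired analysis was possible because no values per library were analysed. Of 49 alternative values for 10 results, 26 stayed within the interval of the reported value, and 2 counts of members, which have no interval, were within 1.5 times of 359. The others follow. With a distance limit of 25 kb there were 615 members, with a median TSS distance of 57.5 kb; 34.0% had another lower peak within 25 kb, 32.0% were far from RefSeq protein-coding and lncRNA genes, and 8.48% of all peaks beyond that limit from such genes were lower. With 100 kb there were 152 members, a median distance of 148.8 kb, and shares of 19.1%, 16.4% and 10.7%; 15.4% of their neighbours were lower. With a neighbour window of 5 kb, 3.62% of members had another lower peak, and with 100 kb 61.6% had one and 24.3% of neighbours were lower. Counting protein-coding genes only, 66.3% of members were far from genes and 8.03% of far peaks were lower; with genes of every type 9.75% of members were far. Among members assigned to protein-coding genes, 15.6% were at developmental factor genes. Without peaks of the minimum width the median was 964.5 base pairs and 8.40% of far peaks were lower. Without chromosomes X and Y, an alternative chosen after seeing the data, 8.29% of far peaks were lower.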
